A study of Homo sapiens with 9 samples.

Results

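Desmosomes are the junctions that tie the keratin filaments of neighbouring epithelial cells together. The genes of 10 desmosome components were examined: the desmocollins DSC2 and DSC3, the desmogleins DSG2 and DSG3, the plakophilins PKP1, PKP2 and PKP3, the plaque proteins DSP and JUP, and PERP. They were chosen by name from the known parts of the junction, and all 10 of them were among the 25369 named genes of the count matrix. All 10 also passed a filter on low counts that left 16117 genes. PKP1 reached it through its counts in empty-vector cells alone, which fixed the direction of its difference between the lines. PKP1 is therefore left out of the counts of calls between lines, save where a closing count says that it holds PKP1. In a desmosome, desmocollins and desmogleins are transmembrane cadherins that bind across the gap between cells. Inside the cell their tails hold plakoglobin (JUP) and plakophilins, and these hold desmoplakin (DSP), which anchors keratin filaments. Stratified and basal epithelia such as the outer layer of the mammary duct use DSC3 and DSG3, whereas DSC2 and DSG2 are the more widely expressed pair.

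The 9 RNA-seq libraries came from MCF10A, a non-tumorigenic cell line of human mammary epithelium that resembles basal cells in culture. HER2 cells carried the retroviral vector pBABEpuro with a constitutively active HER2, the growth factor receptor encoded by ERBB2, with the substitution V659E, and empty-vector (EV) cells carried pBABEpuro alone. All cells were grown in DMEM/F12 with horse serum, insulin, EGF, hydrocortisone and cholera toxin, and all were transfected, either with a control siRNA or with 1 of 2 reagents, numbered 1 and 3, that target YAP and TAZ. These transcriptional co-activators are encoded by YAP1 and WWTR1. Cells were replated 24 h after transfection on plastic or on soft polyacrylamide (0.5 kPa), and their RNA was taken after another 24 h. HER2 cells gave 2 YAP/TAZ siRNA libraries on plastic, 1 control library on the hydrogel and 1 control library on plastic. EV cells gave 2, 1 and 2 libraries of the same kinds, and the 2 EV control libraries on plastic are called A and B. The labels do not say whether libraries of a group came from separate cultures, so p-values measure the spread between these samples, which may be technical. In the model of group means used below, that spread also holds the difference between reagents 1 and 3, which share a group in each line. Whether each line is a pool or a clone is not given in the sources used here.

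The libraries held 24425556 (HER2 control on plastic) to 78945981 counts (EV, siRNA 3), so that 3 counts, taken as the detection floor, were worth 0.0371 to 0.131 CPM. CPM are counts scaled to library size with edgeR's TMM factors. ERBB2 stood at 361 to 614 CPM in HER2 cells and at 57.7 to 95.5 CPM in EV cells. YAP1 was 9.75 and 18.9 CPM in the siRNA libraries of HER2 cells, against 115 CPM in their control. In those of EV cells it was 14.3 and 14.3 CPM, against 83.9 and 85.1 CPM in controls A and B. WWTR1 averaged 38.6 CPM with YAP/TAZ siRNA in HER2 cells, against 170 CPM in their control on plastic. In EV cells it averaged 17.8 CPM with YAP/TAZ siRNA and 77.1 CPM in the controls on plastic. The CPM left were thus higher in HER2 cells, and so was the level of their control. The epithelial label was checked against 5 epithelial markers, whose summed level was 211 to 297 CPM in HER2 libraries and 495 to 1816 CPM in EV libraries. CDH1, the cadherin that defines epithelia, had 0.238 to 1.65 CPM (14 to 116 counts) in HER2 cells, against 144 to 1111 CPM in EV cells.

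For the 9 genes other than PKP1, every one of the 4 HER2 libraries was lower than every one of the 5 EV libraries. The nearest libraries of DSG2 were only 1.01-fold apart. PKP1 is left out of this count, since the filter fixed its direction. Across all genes tested, 12.5% were lower in HER2 cells with no overlap of libraries. The counts of the 10 genes together made up 0.0831% to 0.109% of a HER2 library and 0.327% to 1.00% of an EV library. Averaged over 3 settings (plastic, hydrogel and YAP/TAZ siRNA) with equal weight, 8 of the other 9 (all but DSG2) fell in HER2 cells by edgeR's quasi-likelihood test on the 6 group means (the group-means model, with an adjusted p under 0.05 over all genes). Of all genes tested 15.6% were called lower, and of the 14529 genes that reached the filter's level in both lines 15.3%. The median log2 fold change of these 9 members was -2.81, that of DSC3, beside -0.09 for all genes tested. A second model, called the reagent model here, let siRNA 3 differ from siRNA 1 by the same amount in both lines. This shared shift is an assumption. The observed ratios of DSC2, DSG3, DSP, JUP and PERP, given below, had opposite signs in the lines. The reagent model called all 9 lower, and 27.2% of all genes. In bulk RNA, fewer cells of a type and less RNA per cell cannot be told apart.

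**Figure D1:**
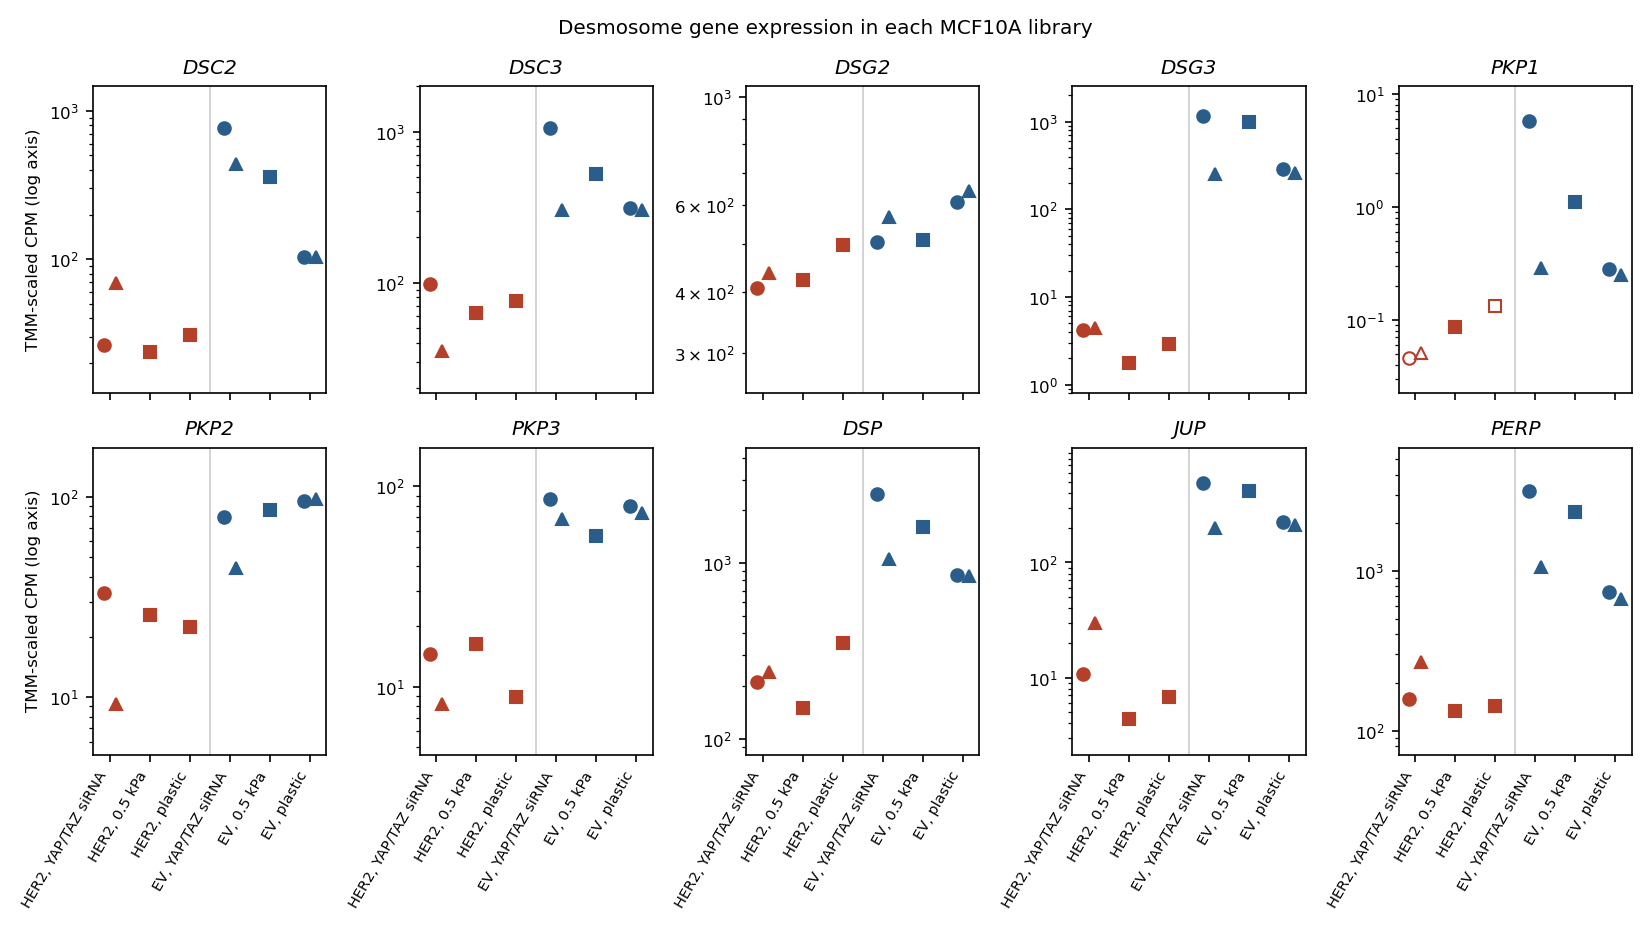
CPM of each desmosome gene in each library on a log axis, with HER2 libraries in red to the left and EV libraries in blue to the right; circles are siRNA 1 or control A, triangles siRNA 3 or control B, squares single libraries, and open symbols are libraries with 0 counts drawn at their floor of 3 counts. No HER2 library reaches an EV library in any panel, though for PKP1 the filter fixed the direction. Of all genes tested 12.5% are lower in HER2 cells in this way. DSG3 is 1.76 to 4.39 CPM against 252 to 1155 CPM, and DSG2 is 406 to 498 CPM against 504 to 642 CPM.

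The desmogleins showed the widest and the narrowest gap between lines among the 10 genes. DSG3, the desmoglein of basal and stratified epithelia and the main target of the autoantibodies of pemphigus vulgaris, had 4.25 CPM with siRNA 1, 4.39 with siRNA 3, 1.76 on the hydrogel and 2.93 on plastic in HER2 cells. In EV cells it had 1155 CPM with siRNA 1, 252 with siRNA 3, 995 on the hydrogel, and 292 and 261 in controls A and B. The lowest EV library was thus 57.4-fold above the highest HER2 library. Its log2 fold change averaged over settings was -7.68 ± 0.67 (SE; edgeR adjusted p = 0.00323). DSG2, the desmoglein of simple epithelia and heart muscle, had 406, 436, 423 and 498 CPM in the HER2 libraries in the same order. In EV cells it had 504, 569 and 511 CPM for siRNA 1, siRNA 3 and the hydrogel, and 611 and 642 CPM in the controls. The gap between the nearest libraries was only 1.01-fold. The log2 fold change of DSG2 was -0.32 ± 0.12, with a 95% interval of -0.62 to -0.02, and did not pass after adjustment (edgeR adjusted p = 0.108), while it did in the reagent model (adjusted p = 0.0165). An antisense gene, DSG2-AS1, shares 171 of the 6190 exonic bases of DSG2, and whether reads were counted by strand is not given in the sources used here.

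Because these genes moved together between lines while DSG2 hardly differed, their promoters are shown. RefSeq (GRCh38.p14) gave windows for 8 of the 10 genes, 10 windows in all, and none was in the table used here for PKP2 and PKP3. The 250 bases upstream of the start are printed below for DSG3 and DSG2, whose levels differed most and least between lines. Those of DSC3 and DSP are printed as examples from the adhesive layer and the plaque. PERP and PKP1 also have a single window each, which is not printed. Capitals mark CACCTG or its reverse complement CAGGTG, the E-box that ZEB and SNAI repressors are known to bind.
DSG3 (chr18:31447491-31447740, plus strand): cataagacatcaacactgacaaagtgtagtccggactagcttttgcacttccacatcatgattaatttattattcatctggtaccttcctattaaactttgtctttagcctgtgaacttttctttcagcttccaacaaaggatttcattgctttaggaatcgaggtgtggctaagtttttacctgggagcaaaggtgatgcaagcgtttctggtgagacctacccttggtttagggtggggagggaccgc
DSG2 (chr18:31497927-31498176, plus strand): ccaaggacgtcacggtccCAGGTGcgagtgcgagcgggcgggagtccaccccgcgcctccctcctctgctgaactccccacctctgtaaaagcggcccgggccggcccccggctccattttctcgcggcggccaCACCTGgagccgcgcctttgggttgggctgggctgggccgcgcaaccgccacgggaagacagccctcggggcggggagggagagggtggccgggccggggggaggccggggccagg
DSC3 (chr18:31042743-31042992, minus strand): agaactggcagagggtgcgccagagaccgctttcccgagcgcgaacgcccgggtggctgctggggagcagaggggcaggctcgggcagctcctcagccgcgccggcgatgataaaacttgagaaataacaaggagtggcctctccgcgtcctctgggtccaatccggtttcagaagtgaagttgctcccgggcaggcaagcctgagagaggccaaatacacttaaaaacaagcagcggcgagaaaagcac
DSP (chr6:7541421-7541670, plus strand): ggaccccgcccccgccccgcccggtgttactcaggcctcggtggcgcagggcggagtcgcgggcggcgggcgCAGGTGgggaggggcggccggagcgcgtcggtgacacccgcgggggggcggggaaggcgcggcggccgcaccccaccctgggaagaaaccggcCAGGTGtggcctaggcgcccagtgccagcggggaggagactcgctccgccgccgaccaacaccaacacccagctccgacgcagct

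The DSG3 window was 42.8% G or C with 4 CpG, and that of DSG2 was 75.2% with 26 CpG. The DSC3 window was 60.4% with 18 CpG and the DSP window 78% with 33 CpG, beside a median of 58.0% and 11 CpG over 35116 windows of the table. CACCTG, sought on both strands, stood in the windows of DSG2 and DSP, with 2 sites each, in 1 of 2 windows of JUP with 2 sites, and in 1 of 2 windows of DSC2 with 1 site. That is 4 of 10 windows, which belong to 8 genes, beside 17.5% of all windows. All of the 10 windows but that of DSG3 were above the median in G or C, and no comparison at equal content was made. The windows of DSG3, DSC3, PERP and PKP1 did not hold CACCTG. The letters GGAATG (the TEAD element), which 11.9% of all windows hold, and AACCGGTT (the grainyhead element), which 0.117% hold, were in none of the 10 windows. TGANTCA (the AP-1 element), held by 6.57% of all windows, was in the PERP window alone. These are matches of letters in the reference genome, and binding was not measured.

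The desmocollins, the partners of the desmogleins, were both lower in HER2 cells. DSC3, the basal form, had 97.9 CPM with siRNA 1, 35.2 with siRNA 3, 63.4 on the hydrogel and 75.6 on plastic in HER2 cells. In EV cells it had 1058, 301 and 524 CPM for siRNA 1, siRNA 3 and the hydrogel, and 311 and 303 CPM in controls A and B. Its log2 fold change averaged over settings was -2.81 ± 0.54 (adjusted p = 0.0187). DSC2, the widely expressed form, had 26.4, 69.3, 23.8 and 30.6 CPM in the HER2 libraries in the same order. It had 771, 438 and 360 CPM for siRNA 1, siRNA 3 and the hydrogel in EV cells, and 103 and 103 CPM in the controls. The 2 EV controls were thus the EV libraries closest to HER2 cells, at 1.48 times the highest HER2 library, and the log2 fold change was -3.11 ± 0.40 (adjusted p = 0.00697).

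The mix of desmosomal cadherins differed between lines. Per kilobase of the longest coding transcript (GENCODE v29), DSG2 made up 80.4% to 86.7% of the transcripts of the 4 cadherin genes in HER2 libraries and 17.0% to 52.7% in EV libraries. DSG3 made up 0.381% to 0.923% in HER2 libraries and 20.6% to 48.4% in EV libraries. The ratio of DSG2 to DSG3 per kilobase was 90.5 to 227 in HER2 libraries and 0.413 to 2.33 in EV libraries. In EV cells it was below 1 with siRNA 1 and on the hydrogel, at 0.413 and 0.487, and it was 2.14 with siRNA 3 and 1.98 and 2.33 in controls A and B. The transcript used was 12.325 kb for DSC2, against 6.978 kb for DSC3, 5.831 kb for DSG2 and 5.525 kb for DSG3. A shorter transcript of DSC2 would give it larger shares. Among desmocollins, DSC2 made up 52.7% with siRNA 3 in HER2 cells and 13.2% to 18.7% in the other HER2 libraries. In EV cells it made up 45.1% with siRNA 3, 29.2% with siRNA 1, 28.0% on the hydrogel and 15.8% and 16.1% in the controls.

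**Figure D2:**
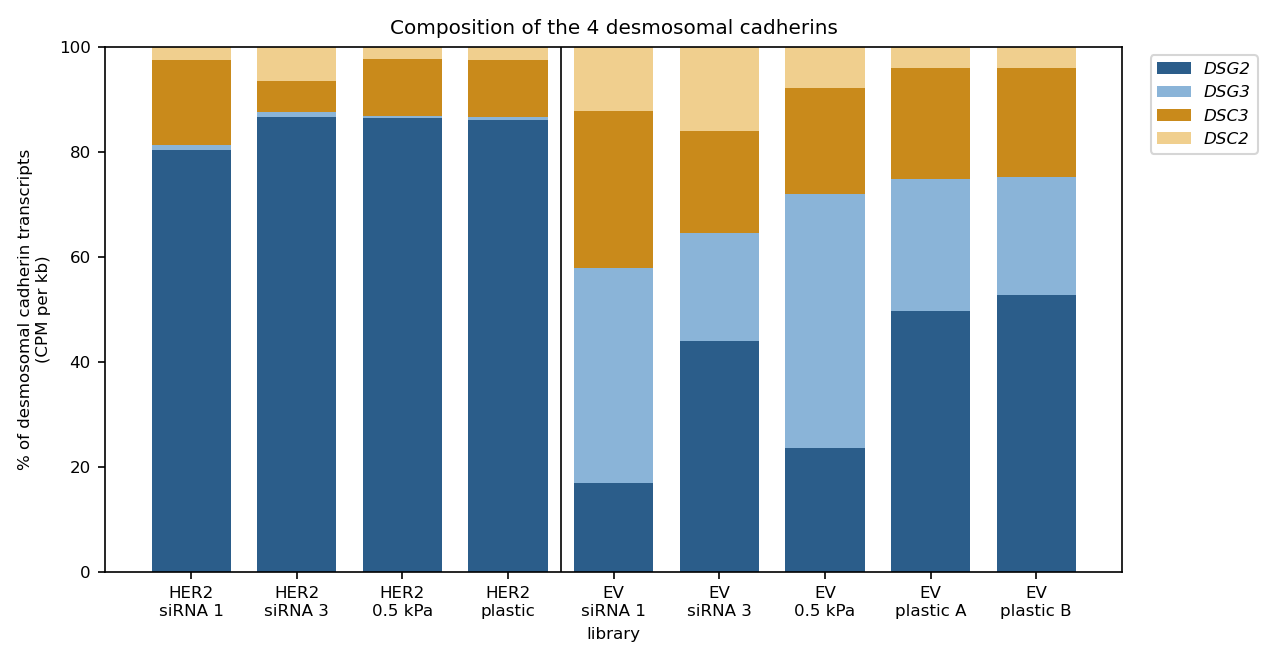
Share, in percent, of each desmosomal cadherin among the transcripts of DSG2, DSG3, DSC2 and DSC3 in each library, from CPM per kilobase; each bar sums the 4 genes, with HER2 libraries to the left of EV libraries. DSG2 fills 80.4% to 86.7% of the HER2 bars and 17.0% to 52.7% of the EV bars, where DSG3 takes 20.6% to 48.4%.

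The plaque genes DSP and JUP were lower in HER2 cells by unequal amounts. DSP, the keratin linker, had 211 CPM with siRNA 1, 240 with siRNA 3, 150 on the hydrogel and 352 on plastic in HER2 cells. It had 2478, 1064 and 1613 CPM for siRNA 1, siRNA 3 and the hydrogel in EV cells, and 862 and 853 CPM in the controls. The log2 fold change was -2.56 ± 0.30 (adjusted p = 0.00593). JUP, which also binds classical cadherins in adherens junctions and is a close relative of beta-catenin, had 10.7, 29.7, 4.33 and 6.83 CPM in the HER2 libraries in the same order. EV cells had 492, 201 and 416 CPM for siRNA 1, siRNA 3 and the hydrogel, and 227 and 213 CPM in the controls, so that the nearest libraries of the lines stood 6.77-fold apart. Its log2 fold change was -5.23 ± 0.54 (adjusted p = 0.00449). DSP transcripts per kilobase were 2.88 to 18.4 times those of JUP in HER2 libraries and 1.36 to 1.89 times in EV libraries.

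Plakophilins are the armadillo-repeat proteins that cluster the cadherins and DSP at the membrane. PKP3, the most widely spread of them in epithelia, had 14.5, 8.23, 16.3 and 8.93 CPM in HER2 cells for siRNA 1, siRNA 3, the hydrogel and plastic. The EV libraries held 86.8, 68.5 and 56.5 CPM for siRNA 1, siRNA 3 and the hydrogel, and 79.4 and 74.0 CPM in the controls, a range within the line of 1.54-fold. Its log2 fold change was -2.56 ± 0.24 (adjusted p = 0.00384). PKP2, the plakophilin of simple epithelia and heart, had 33.0, 9.30, 25.6 and 22.4 CPM in the HER2 libraries in the same order. It had 79.3, 44.4 and 85.4 CPM for siRNA 1, siRNA 3 and the hydrogel in EV cells, and 95.3 and 97.7 CPM in the controls. The libraries closest between lines were those with siRNA 1 in HER2 cells and siRNA 3 in EV cells, 1.35-fold apart, and the log2 fold change was -1.80 ± 0.45 (adjusted p = 0.0359).

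PKP1, the plakophilin of upper epidermal layers, was scarce in MCF10A. It had 0 counts in 3 HER2 libraries and 6 counts (0.0854 CPM) in HER2 cells on the hydrogel. Its EV levels were 295 counts (5.76 CPM) with siRNA 1, 23 (0.284 CPM) with siRNA 3, 54 (1.11 CPM) on the hydrogel, and 20 (0.282 CPM) and 19 (0.251 CPM) in controls A and B. Against a floor of 3 counts over the group, PKP1 was at least 126-fold lower in HER2 cells under siRNA and at least 2.03-fold lower on plastic. The siRNA value rested on EV siRNA 1, and with siRNA 3 alone as the EV level it was at least 11.8-fold. On the hydrogel it was 13.0-fold lower (counting interval 5.97 to 35.4, which covers counting error only). No test between lines is given for PKP1, since the filter fixed its direction.

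PERP, a tetraspan membrane protein of desmosomes that p53 and p63 are known to induce, was the most abundant of the 10 genes per kilobase in every EV group. It had 158, 267, 132 and 142 CPM in HER2 cells for siRNA 1, siRNA 3, the hydrogel and plastic. EV cells stood at 3154, 1054 and 2324 CPM for siRNA 1, siRNA 3 and the hydrogel, and 734 and 667 CPM in the controls. The log2 fold change was -3.25 ± 0.43 (adjusted p = 0.00767). In the EV controls the order of mean CPM per kilobase ran from PERP (163) over DSG2 (107), DSP (87.5), JUP (62.8), DSG3 (50.1), DSC3 (44.0), PKP3 (27.3) and PKP2 (22.4) to DSC2 (8.33) and PKP1 (0.0490). In the HER2 control DSG2 led with 85.4 CPM per kilobase, followed by DSP (36.0), PERP (33.0), DSC3 (10.8), PKP2 (5.21), PKP3 (3.18), DSC2 (2.49), JUP (1.95) and DSG3 (0.531), with PKP1 at 0 counts. These lengths are of the longest coding transcript and come from another annotation and build than the counts, so levels between genes are approximate. The HER2 control is 1 library, which gives no spread for the order there.

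Of the 8 calls of the average over settings, 7 held whichever replicate library was left out. The PKP2 call was lost without EV control A, EV control B, or either EV siRNA library (adjusted p 0.0577 to 0.0863).

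**Figure D3:**
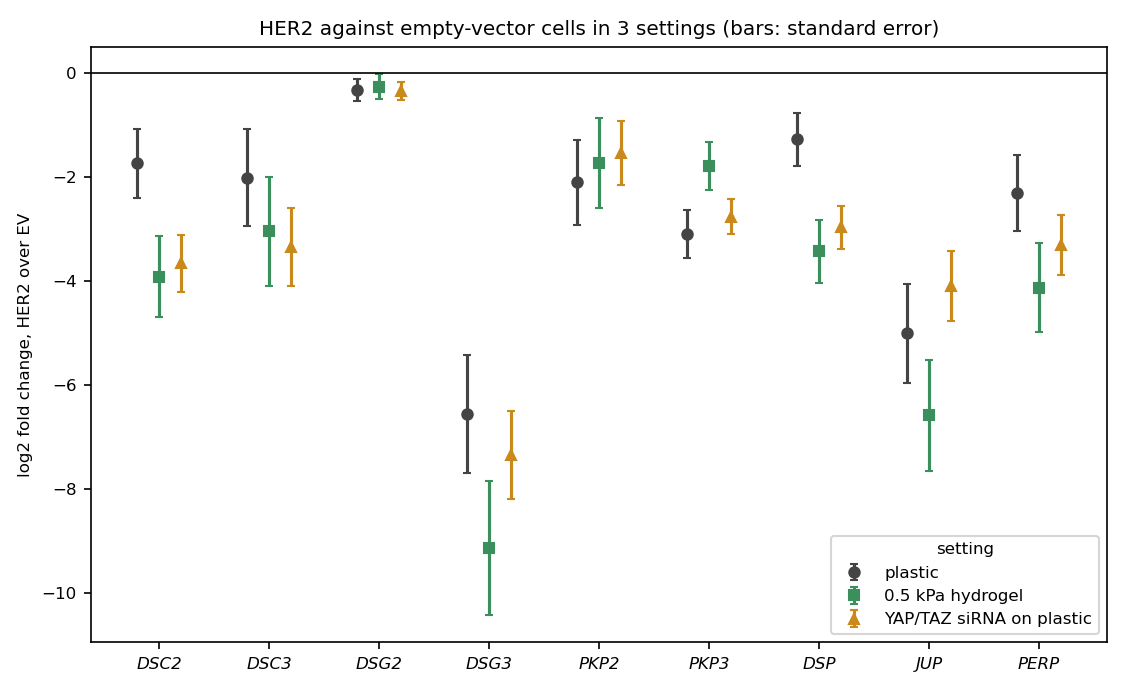
Log2 fold change of HER2 over EV cells for 9 desmosome genes in 3 settings (plastic, hydrogel, YAP/TAZ siRNA), with bars of 1 SE from edgeR; PKP1 is left out because HER2 libraries with 0 counts make its fitted value depend on the prior count. All points lie below 0, from -0.27 for DSG2 to -9.14 for DSG3, both on the hydrogel.

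The lines were also set against each other within each setting, which rests on 1 HER2 library on plastic and on 1 library of each line on the hydrogel. Under YAP/TAZ siRNA, 6 of the 9 genes fell in HER2 cells (DSC2, DSG3, PKP3, DSP, JUP and PERP), where 4.13% of all genes were called lower, and all 9 fell in the reagent model (17.5% of all genes). On the hydrogel DSG3 alone fell (-9.14 ± 1.29, adjusted p = 0.0426; 1.34% of all genes were called lower), and in the reagent model 8 fell, all but DSG2 (14.6%). On plastic 0 of 9 passed (0.8% of all genes were called lower). There 7 of them and 3353 of all genes had an unadjusted p under 0.05, DESeq2 called 5 of them and 2322 of all genes, and in the reagent model DSC3, DSG3, PKP2, PKP3 and JUP fell (13.2%). The smallest adjusted p on plastic was 0.0513, for PKP3 at -3.10 ± 0.45. The siRNA calls depended on single libraries: 1 gene was called without EV control A or without control B, and 2 without EV siRNA 1 or without HER2 siRNA 1. Without EV control A or without control B the hydrogel call of DSG3 was lost (adjusted p = 0.127 and 0.126).

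The estimated size of the gap differed from gene to gene between settings. The log2 fold change of DSP was -1.28 ± 0.51 on plastic, -3.43 ± 0.61 on the hydrogel and -2.97 ± 0.42 with siRNA. For DSC2 it was -1.75 ± 0.66, -3.92 ± 0.78 and -3.66 ± 0.55, and for PERP -2.30 ± 0.73, -4.13 ± 0.85 and -3.31 ± 0.58 in the same order. The estimates of PKP3 ran the other way, with -3.10 ± 0.45 on plastic and -1.79 ± 0.45 on the hydrogel. Those of PKP2 were -2.11 ± 0.81 and -1.74 ± 0.87, and their difference (0.37 ± 1.12) was within its SE. These differences between settings are the interactions tested below, and 0 of 10 passed after adjustment.

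How the support changes the cells was asked by setting the hydrogel against plastic within each line. In EV cells the single hydrogel library stood above both plastic controls for 7 of 10 genes, where 47.2% of all genes lay above in this way. It was below both for DSG2, PKP2 and PKP3, where 44.2% lay below. DSG3 had 995 CPM on the hydrogel, against 292 and 261 CPM on plastic, or 3.60-fold. DSC2 was 3.51-fold and PERP 3.32-fold the mean control, and DSC3, DSP and JUP were 1.71-fold, 1.88-fold and 1.89-fold. The median log2 fold change of the 10 genes was 0.92, beside 0.01 for all genes. In the group-means model 0 of 10 passed, and 0% of all genes were called higher; by unadjusted p under 0.05 there were 2 of the 10 (DSC2 and PERP) and 3064 of all genes, and DESeq2 called 1 of the 10 and 1872 genes. In the reagent model DSC3 rose (0.77 ± 0.14, adjusted p = 0.0283), where 10.2% of all genes were called higher, and this call was lost without EV control A or without control B.

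In HER2 cells the single hydrogel library was below the single plastic control for 7 of 10 genes, as it was for 47.4% of all genes. DSP had 150 CPM on the hydrogel, against 352 CPM on plastic (-1.23 ± 0.56, adjusted p = 0.547), and DSG2 had 423 against 498 CPM. PKP3 had 16.3 against 8.93 CPM (0.87 ± 0.45, adjusted p = 0.598). With 1 library on each side, 0 of 10 passed in edgeR, with 0 by unadjusted p under 0.05 and 0 in DESeq2, and 0 passed in the reagent model (0.186% of all genes called). Over all genes edgeR called 0, DESeq2 called 313, and 1568 had an unadjusted p under 0.05.

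The response to the hydrogel was tested for a difference between lines, HER2 minus EV. It was -2.15 ± 0.73 for DSP (95% interval -3.94 to -0.36), -2.17 ± 0.92 for DSC2 (-4.45 to 0.10) and -2.58 ± 1.24 for DSG3 (-5.64 to 0.48). DSP had an unadjusted p of 0.0264 and an adjusted p of 0.383 in edgeR. None of the 10 genes and 0 of all genes passed in either model. By unadjusted p under 0.05 there were 1 of the 10 and 1901 of all genes, and DESeq2 called 0 of the 10 and 500 of all genes.

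**Figure D4:**
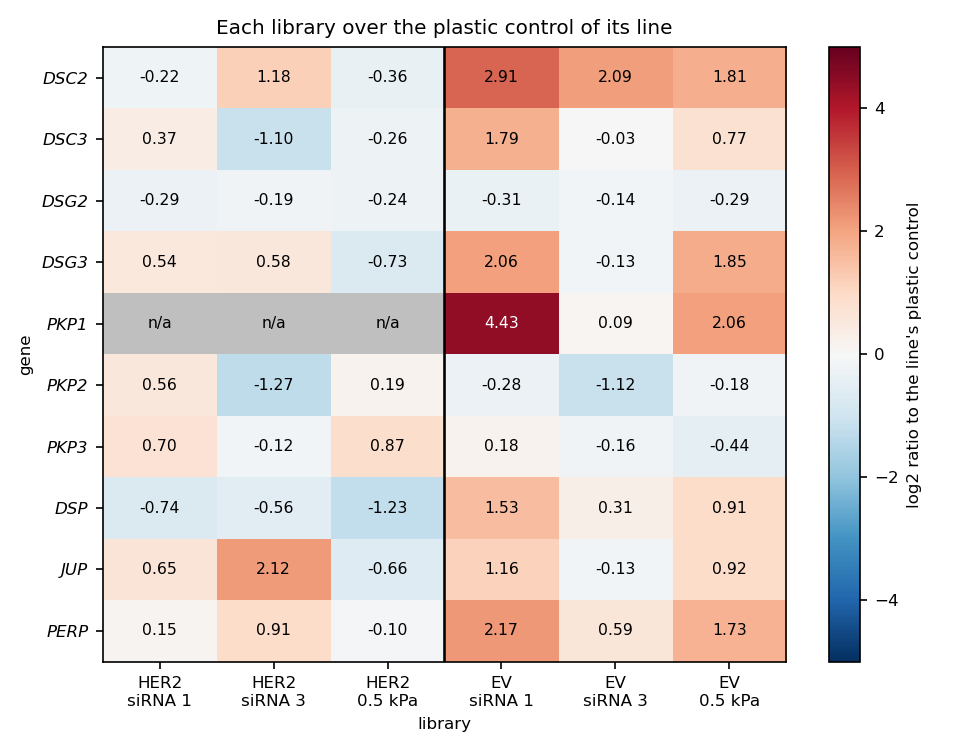
Heat map of the log2 ratio of CPM in each hydrogel or YAP/TAZ siRNA library to the mean plastic control of its own line, with HER2 libraries to the left of EV libraries and desmosome genes in rows; PKP1 has no ratio in HER2 cells, whose control had 0 counts. With siRNA 1 and on the hydrogel in EV cells 7 of the 10 genes are 1.71-fold or more above control, while the HER2 libraries reach at most 4.34-fold, for JUP with siRNA 3.

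YAP/TAZ siRNA was compared with control siRNA on plastic in each line, and the reagents differed. In EV cells siRNA 1 gave the highest level of the 9 libraries for 8 of 10 genes, all but DSG2 and PKP2, and for 12.6% of all genes. DSC2 stood at 7.51-fold the mean control with siRNA 1 and 4.26-fold with siRNA 3, and PERP at 4.50-fold and 1.51-fold. DSG3 stood at 4.18-fold and 0.912-fold, DSC3 at 3.45-fold and 0.983-fold, DSP at 2.89-fold and 1.24-fold, and JUP at 2.24-fold and 0.913-fold. DSC2, PKP1, DSP and PERP were above both controls with both reagents, a count of 4 of 10 where 32% of all genes lay above in this way. DSG2 and PKP2 were below both controls with both reagents, a count of 2 where 30.8% lay below.

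In the group-means model 0 of 10 passed in EV cells and 0 of all genes, with DSC2 nearest at 2.56 ± 0.52 (adjusted p = 0.0828). By unadjusted p under 0.05 there were 3 of the 10 (DSC2, DSP and PERP) and 3473 genes, and DESeq2 called 2 of the 10 and 2317 genes. In the reagent model DSC2 (2.60 ± 0.53, adjusted p = 0.0265), DSC3 (0.88 ± 0.12, adjusted p = 0.0123) and PKP1 (adjusted p = 0.0412) rose, where 12.1% of all genes were called higher. These calls refer to the mean of the reagents: DSC3 was at 301 CPM with siRNA 3, below controls A and B at 311 and 303 CPM, and PKP1 had 23 counts with siRNA 3, against 20 and 19 in the controls. Without EV control A or without control B the reagent model called 0 of 10. The hydrogel and siRNA comparisons in EV cells share controls A and B, so their values are given side by side only.

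In HER2 cells DSG3, JUP and PERP were above the control with both reagents and DSG2 and DSP below it. JUP had 10.7 CPM with siRNA 1 and 29.7 CPM with siRNA 3, against 6.83 CPM in the control (1.56 ± 0.79, adjusted p = 0.523). DSP had 211 and 240 CPM, against 352 CPM. DSC2, DSC3, PKP2 and PKP3 lay above the control with 1 reagent and below it with the other. In edgeR 0 of 10 passed in either model, with 0 by unadjusted p under 0.05 and 0 in DESeq2; in the reagent model 4.24% of all genes were called. Over all genes the group-means model called 0, DESeq2 called 536, and 1751 had an unadjusted p under 0.05.

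For the difference of the siRNA response between lines, HER2 minus EV, DSC2 gave -1.91 ± 0.77 (95% interval -3.81 to -0.02, unadjusted p = 0.0484) and DSP -1.69 ± 0.61 (-3.18 to -0.20, unadjusted p = 0.0326) in edgeR. None of the 10 genes and 0 of all genes passed after adjustment in either model. The unadjusted count was 2 of the 10 and 736 of all genes, and DESeq2 called 0 of the 10 and 34 of all genes.

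The reagents were set against each other in the reagent model, siRNA 3 minus siRNA 1 over both lines. DSC3 (-1.64 ± 0.12, adjusted p = 0.00724), PKP2 (-1.32 ± 0.25, adjusted p = 0.0297) and PKP1 (adjusted p = 0.0324) were lower with siRNA 3, 3 of 10 where 9.36% of all genes were called lower. DSC3 was 35.2 CPM with siRNA 3 and 97.9 with siRNA 1 in HER2 cells, and 301 and 1058 CPM in EV cells. PKP2 was 9.30 and 33.0 CPM in HER2 cells, and 44.4 and 79.3 CPM in EV cells. PKP1 had 0 counts with either reagent in HER2 cells, so its call rested on EV cells alone, with 23 and 295 counts. Without EV control A or without control B the DSC3 call alone was left. For DSC2, DSG3, DSP, JUP and PERP the reagents ordered oppositely in the lines, with log2 ratios of 1.39, 0.05, 0.18, 1.47 and 0.76 in HER2 cells and -0.82, -2.20, -1.22, -1.29 and -1.58 in EV cells. No replicate of a reagent within a line exists to give these ratios an error.

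Genes around the desmosome were described by counts over lists of related genes, in the average of HER2 against EV cells over settings. Of 6 further desmosomal and cornified-layer genes, 3 (DSC1, DSG1 and CDSN) reached the filter's level in EV cells alone, like PKP1, and none of the other 3 passed the test. DSC1 had 0 counts in the HER2 libraries and 0.042 to 0.937 CPM in EV libraries, and DSG1 had at most 1 count in a HER2 library and 0.106 to 3.57 CPM in EV libraries. PKP4, a plakophilin relative found at several junctions, changed by 0.07 ± 0.24. Of 5 plakins and keratin linkers PPL and PLEC fell, with a median over the list of -0.88. Of 8 adherens junction genes 6 fell, with a median over the list of -1.85. The cadherins CDH1 (-9.35 ± 1.06) and CDH3 (-7.41 ± 0.37) were among them. So was the catenin CTNND1, with 1.11 to 2.23 CPM in HER2 libraries and 4.45 to 9.88 CPM in EV libraries. The catenins CTNNA1 (-0.50 ± 0.21) and CTNNB1 (-0.20 ± 0.19) did not pass. Of 11 keratins 8 fell, with a median of -2.43, among them KRT17 (-9.93 ± 0.48) and KRT14 (-8.28 ± 1.33), while KRT18 (-0.38 ± 0.19) did not pass. The share of all genes called lower was 15.6%, as above, and the lists were chosen with earlier results of these data known.

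Of 9 tested transcription factors tied to epithelial junction genes, OVOL1 reached the filter's level in EV cells alone, and 7 of the other 8 fell. TP63, the basal factor that is known to act on PERP and other junction genes, had 0.438 to 0.971 CPM in HER2 libraries and 69.3 to 160 CPM in EV libraries (-7.28 ± 0.27). OVOL2, ELF3, GRHL1, GRHL3, KLF4 and KLF5 also fell, and EHF did not pass (-1.39 ± 1.41). GRHL2, a known regulator of epithelial junctions, was not tested, with 0 CPM in all but 1 library. Among 6 repressors of such genes ZEB1 (2.08 ± 0.32) and ZEB2 (2.97 ± 0.32) rose, where 10.2% of all genes were called higher. SNAI1, SNAI2, TWIST1 and TWIST2 did not pass. Over these lists the reagent model also called KAZN, EVPL, CTNNA1, KRT5, EHF and SNAI2 lower, where 27.2% of all genes were called lower. In EV cells on the hydrogel, the reagent model called 5 of the 9 factors higher (GRHL1, KLF4, OVOL1, ELF3 and EHF), 4 of 11 keratins higher and 1 lower, and 3 of 8 adherens junction genes higher, where 10.2% of all genes were called higher and 9.95% lower. With YAP/TAZ siRNA in EV cells it called 4 factors higher (TP63, GRHL1, ELF3 and EHF), 2 keratins higher and 2 lower, and 2 adherens junction genes higher, where 12.1% of all genes were called higher and 13.6% lower. The group-means model called none of these in EV cells.

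Markers of other cells were set beside the desmosome genes. Basal mammary markers were lower in HER2 cells in sum. The 5 markers summed to 445 to 1046 CPM in HER2 libraries and 2852 to 7229 CPM in EV libraries. Of the 5, 3 were lower in HER2 cells without overlap, as were 3 of the 5 epithelial markers. Of all genes 12.5% were lower in this way. Within EV cells the basal markers did not follow the desmosome genes on the hydrogel. There LAMB3 (312 against 1223 CPM) and ITGB4 (127 against 318 CPM) lay below the mean control on plastic. KRT5 (2098 against 2301 CPM) and TP63 (69.3 against 79.1 CPM) also lay below it, and KRT14 (246 against 193 CPM) lay above it. The 7 fibroblast markers summed to 5.95 to 30.7 CPM in HER2 and 6.02 to 107 CPM in EV libraries. The 4 endothelial markers summed to 13.1 to 37.9 and 3.19 to 23.3 CPM in HER2 and EV libraries. PECAM1 was higher in HER2 cells without overlap, at 7.92 to 36.4 CPM against 1.36 to 5.39 CPM in EV cells, where 5.98% of all genes were higher in this way. CDH5 was lower without overlap, at 0 to 0.0151 CPM in HER2 libraries and 0.0424 to 0.862 CPM in EV libraries. The 5 leukocyte markers summed to 6.61 to 20.0 CPM in HER2 and 6.44 to 27.2 CPM in EV libraries, nearly all of it CD14, and CD3E had 0 counts in every library. The 3 melanocyte markers summed to 1.94 to 3.81 CPM in HER2 and 6.71 to 13.8 CPM in EV libraries, with TYR at 0 counts throughout. The 4 cardiomyocyte markers summed to 0.569 to 1.77 CPM in HER2 and 1.66 to 4.14 CPM in EV libraries, with MYH6 at 0 counts throughout. The part of any such cells in the desmosome results was not tested.

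As a description, other genes were ranked by how closely they followed the mean standardized profile of the 10 genes over the 9 libraries, among 10036 genes whose log2 CPM averaged 2 or more. S100A14 came first (Pearson's r = 0.994), followed by LIMK2, FLJ23867, CDH3, FAT2, ACOT11, LSR and RNF144B (r from 0.989 to 0.987). An r above 0.95 was found for 139 of them, or 1.39%. The 9 libraries are of 2 lines and are not independent samples of one population, so no p is given. With each line centred on its own mean, a ranking added after the data were seen, 0 of these 8 genes were among the first 8, and S100A14 had r = 0.899. Within the 10 genes, DSG3 and JUP were the most alike over the 9 libraries (r = 0.980). Centred within lines, DSG3 and PERP (r = 0.912) and DSC2 and PERP (r = 0.883) were the closest, and DSG2 was close to none of the others, with r = 0.01 at most.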

How the data were processed

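RNA-seq of 9 MCF10A libraries was analysed, prepared per the labels from total RNA with ribosomal RNA removed. The matrix holds counts of reads per gene as deposited, raw and not normalized by the authors. Per the submitters' processing notes, STAR 2.5.3a, featureCounts, edgeR and hg19 were used; annotation, strand and multiply mapping reads are not given in the sources used here. Of 25370 rows, 1 named no gene and had 0 counts.

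Tests were edgeR 4.0.16 quasi-likelihood F tests in R 4.3.3, after TMM scaling and filterByExpr (minimum count 10, by group), with Benjamini-Hochberg adjustment over 16117 genes at 0.05. The group-means model fitted 6 groups with 3 residual degrees of freedom (biological coefficient of variation 0.408). These came from EV control A against control B and, in each line, from siRNA 1 against siRNA 3, which are different reagents. Groups of 1 library were assumed to vary like the others. The reagent model added the siRNA number as a block shared by both lines (2 residual degrees of freedom, 0.209). Reading equal siRNA numbers in the labels of both lines as pairing by reagent is a judgment, with only 2 pairs, whose siRNA 3 minus siRNA 1 differences correlated at r = 0.42 between lines over 16117 genes. SE is the log2 fold change divided by the square root of F. Levels per kilobase use the longest coding transcript in GENCODE v29 (GRCh38). The alternatives were other scalings, filters and spreads, DESeq2 1.42.0, the block and leaving out each library. All 10 desmosome genes were named whatever their values, genes of related lists named as examples were picked after their values were seen, and the members and lists were chosen with earlier results of these data known. The scripts were tested on simulated data. The depth of 24425556 to 78945981 counts sets a floor of 0.0371 to 0.131 CPM for 3 counts.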

Additional observations from a re-analysis of the deposited data

How the results depend on the processing

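Pairing by siRNA number changed the number of desmosome genes called. Over the 9 genes other than PKP1, the replicate block gave 5 calls between lines on plastic, 8 on the hydrogel and 9 with siRNA. Without the block there were 0, 1 and 6, and the average over settings gave 9 against 8. Of all genes the block called 13.2%, 14.6%, 17.5% and 27.2% lower, against 0.8%, 1.34%, 4.13% and 15.6% without it. The counts between lines for the other alternatives below are over 10 genes and hold PKP1 where it was called. Such a call of PKP1 tells nothing about direction wherever the filter applied. In EV cells the block gave 1 call on the hydrogel and 3 under siRNA, against 0 and 0. DESeq2 called 5 genes on plastic and 7 on the hydrogel between lines (2322 and 2732 of all genes), and 1 on the hydrogel and 2 under siRNA in EV cells. Without a filter on low counts the counts were 3, 5 and, for siRNA in EV cells, 1. Upper-quartile factors and library totals each gave 1 on plastic. With 1 library left out, with or without the block, the calls ran from 0 to 4 on plastic, 0 to 8 on the hydrogel, 1 to 9 with siRNA and 7 to 9 for the average over settings; they were 0 to 1 for siRNA in EV cells and 1 for siRNA 3 against siRNA 1. The HER2 hydrogel, HER2 siRNA and interaction comparisons kept 0 calls under all alternatives run.

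Directions turned only for log2 differences that had not passed in the group-means model. With 1 library left out, siRNA in EV cells gave -0.021 to 1.76 for DSC3, -0.13 to 2.04 for DSG3, -0.16 to 0.16 for PKP3 and -0.13 to 1.14 for JUP, the lowest each time without siRNA 1. In HER2 cells it gave -0.22 to 1.17 for DSC2, -1.11 to 0.37 for DSC3 and -1.27 to 0.56 for PKP2, turned without siRNA 3, and -0.12 to 0.70 for PKP3, turned without siRNA 1. The hydrogel response of DSG2 differed between lines by -0.038 (without EV control B, with and without the block) to 0.085. For the siRNA response this difference ran from -0.15 to 0.10 for DSG2, -1.47 to 0.70 for DSG3, -0.62 to 1.20 for PKP2, -0.13 to 0.69 for PKP3 and -0.010 to 1.69 for JUP. Without a filter on low counts PKP3 gave -0.020 for siRNA in EV cells, and DSG2 0.0063 for the difference between lines in the siRNA response, which was 0.054 with library totals. The cause was not tested.

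Between lines each of the genes other than PKP1 kept its direction in every alternative run. For PKP1 the direction was fixed in advance wherever the filter applied. The HER2 control is the shallowest library, and PKP1 is limited by depth there: its 0 counts allow up to 0.131 CPM.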
